A study of Mus musculus with 13 samples.

Results

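The genes described are 8 transcription factors of the core and naive pluripotency network: Pou5f1, Sox2, Nanog, Sall4, Esrrb, Zfp42, Prdm14 and Nr5a2. They were chosen by symbol, all 8 were found among the 15176 genes of the table, and all 8 passed the filter on low values that left 10647 genes for testing. The 13 RNA-seq libraries come from mouse cells of a chemical reprogramming experiment, in which fibroblasts were exposed to small molecules. Mouse embryonic fibroblasts (MEF, C57xICR strain, untreated) gave 3 libraries. Oct4-GFP negative cells (GFP- cells, from C57xICR fibroblasts, treatment VC6TF) gave 2. Cell clusters positive for Oct4-GFP gave 1, as did Oct4-GFP positive colonies, both from C57xICR fibroblasts with treatment VC6TF+Z. Lines 6 and 11 of chemically induced pluripotent stem cells (CiPSC, C57xICR, treatment VC6TFMB+Z) gave 1 each, and embryonic stem cells (ESC, line R1, strain 129, untreated) gave 4. GFP- cells, clusters and colonies were picked from culture. ESC and CiPSC were grown on mitomycin C-treated MEF feeder layers, so some fibroblast RNA may be in those libraries, and all ESC libraries come from 1 cell line of another strain than the remaining groups. The labels name no separate cultures behind the replicates, so p-values measure only the spread between these samples.

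These factors form the circuit that keeps an embryonic stem cell undifferentiated. Oct4, the protein of Pou5f1, binds DNA jointly with Sox2 at enhancers that hold an octamer-like site beside a SOX site, and Nanog and Sall4 bind many of the same enhancers. Esrrb and Nr5a2 (also called LRH-1) are orphan nuclear receptors, Prdm14 represses differentiation and DNA methyltransferase genes, and Zfp42 (Rex1) is a zinc-finger protein widely used as a marker of the naive state.

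Promoter windows of 300 bases, 250 before to 50 after the annotated start, were found for 6 of the 8 genes in RefSeq sequence of GRCm38.p6 (Pou5f1, Sox2, Nanog, Esrrb, Zfp42 and Nr5a2). Of these, 4 are printed because their genes took different courses in the data: Pou5f1 was at the ESC level in the colonies and Nanog was not, while Esrrb and Zfp42 had more reads than in MEF from the GFP- stage on. Each is written 5′ to 3′ on the strand of its gene, with motif matches in capitals: the octamer ATGCAAAT, the SOX core CATTGT, and a composite site made of the SOX core followed by ATGCA with 0 to 3 bases between them, all searched on both strands. The windows are chr17:35505782-35506081 (plus strand), chr6:122707239-122707538 (plus strand), chr12:86360867-86361166 (plus strand) and chr8:43306960-43307259 (minus strand).
Pou5f1: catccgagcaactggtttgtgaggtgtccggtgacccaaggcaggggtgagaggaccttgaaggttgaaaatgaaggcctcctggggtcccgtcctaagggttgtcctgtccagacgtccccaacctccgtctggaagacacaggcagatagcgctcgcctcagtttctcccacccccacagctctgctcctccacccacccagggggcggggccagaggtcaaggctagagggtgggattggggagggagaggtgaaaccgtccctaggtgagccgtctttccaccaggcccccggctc
Nanog: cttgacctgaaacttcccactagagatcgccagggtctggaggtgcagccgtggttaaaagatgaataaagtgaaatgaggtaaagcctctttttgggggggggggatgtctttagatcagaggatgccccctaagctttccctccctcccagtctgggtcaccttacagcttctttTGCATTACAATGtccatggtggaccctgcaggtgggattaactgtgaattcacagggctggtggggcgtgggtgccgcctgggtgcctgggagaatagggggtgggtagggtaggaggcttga
Esrrb: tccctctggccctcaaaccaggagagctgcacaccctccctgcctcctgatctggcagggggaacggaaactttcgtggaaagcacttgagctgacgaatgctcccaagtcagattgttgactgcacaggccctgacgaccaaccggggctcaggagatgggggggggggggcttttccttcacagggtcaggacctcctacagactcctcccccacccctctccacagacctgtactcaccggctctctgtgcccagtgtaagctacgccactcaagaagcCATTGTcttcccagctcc
Zfp42: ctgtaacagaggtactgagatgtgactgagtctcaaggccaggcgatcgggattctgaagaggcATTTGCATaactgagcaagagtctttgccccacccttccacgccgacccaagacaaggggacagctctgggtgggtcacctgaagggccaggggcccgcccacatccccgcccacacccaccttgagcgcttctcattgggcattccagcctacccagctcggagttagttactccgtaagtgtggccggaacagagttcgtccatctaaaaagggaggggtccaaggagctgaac
The Nanog window held the composite site, 73 bases before the start and in the orientation opposite to the gene, and the SOX core that lies within it. The composite was found in 15 of 32851 such windows (0.0457%). The Zfp42 window held 1 octamer, printed as its reverse complement, which 1.74% of windows hold. The Esrrb window held 1 SOX core, 32 bases after the start, which 12.6% of windows hold. No window of the 6 held the estrogen-related receptor element TCAAGGTCA (0.423% of windows) or the LRH-1 element CAAGGTCA that lies within it (1.56%). A match of letters is a description of sequence and not of binding.

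Values are RPKM, a read density per kilobase of gene after scaling to sequencing depth. In 10 libraries (MEF, GFP- cells, clusters, colonies and ESC replicates 1 to 3) the kilobases are those of the gene's whole span, introns included, so levels there are compared across stages for 1 gene and not between genes. In the remaining 3 (CiPSC lines 6 and 11 and ESC replicate 4) they are exonic, and these 3 are compared only with one another. Estimated depth was 8.854 to 17.616 M reads over the 10 gene-span libraries, with no estimate for the exonic ones. The reads behind each gene-span value were recovered from the RPKM, the span and the depth, and their Poisson bounds cover counting error only. By the value that stands for no reads, MEF replicate 3, the colonies and ESC replicate 3 form a set of their own (0.001 in place of 0), so sets are named where they matter. The summed RPKM of 10 fibroblast markers (such as Col1a1 and Thy1) was 701 to 2668 in MEF, 258 and 302 in GFP- cells, 179 in the clusters, 46.3 in the colonies and 11.4 to 25.6 in ESC. The summed RPKM of 8 stem cell markers outside the factors was 0 to 1.05 in MEF, 0.831 and 6.48 in GFP- cells, 3.06 in the clusters, 534 in the colonies and 796 to 988 in ESC. Dppa5a alone gave 513 RPKM of the stem cell marker sum in the colonies. The median of those 8 markers was 2.11 RPKM in the colonies, against 30.3 to 49.5 RPKM in ESC. In GFP- replicate 2, Fgf4 gave 5.32 RPKM of the 6.48. In bulk samples such as these, fewer cells of a type and less RNA per cell cannot be told apart.

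**Figure D1:**
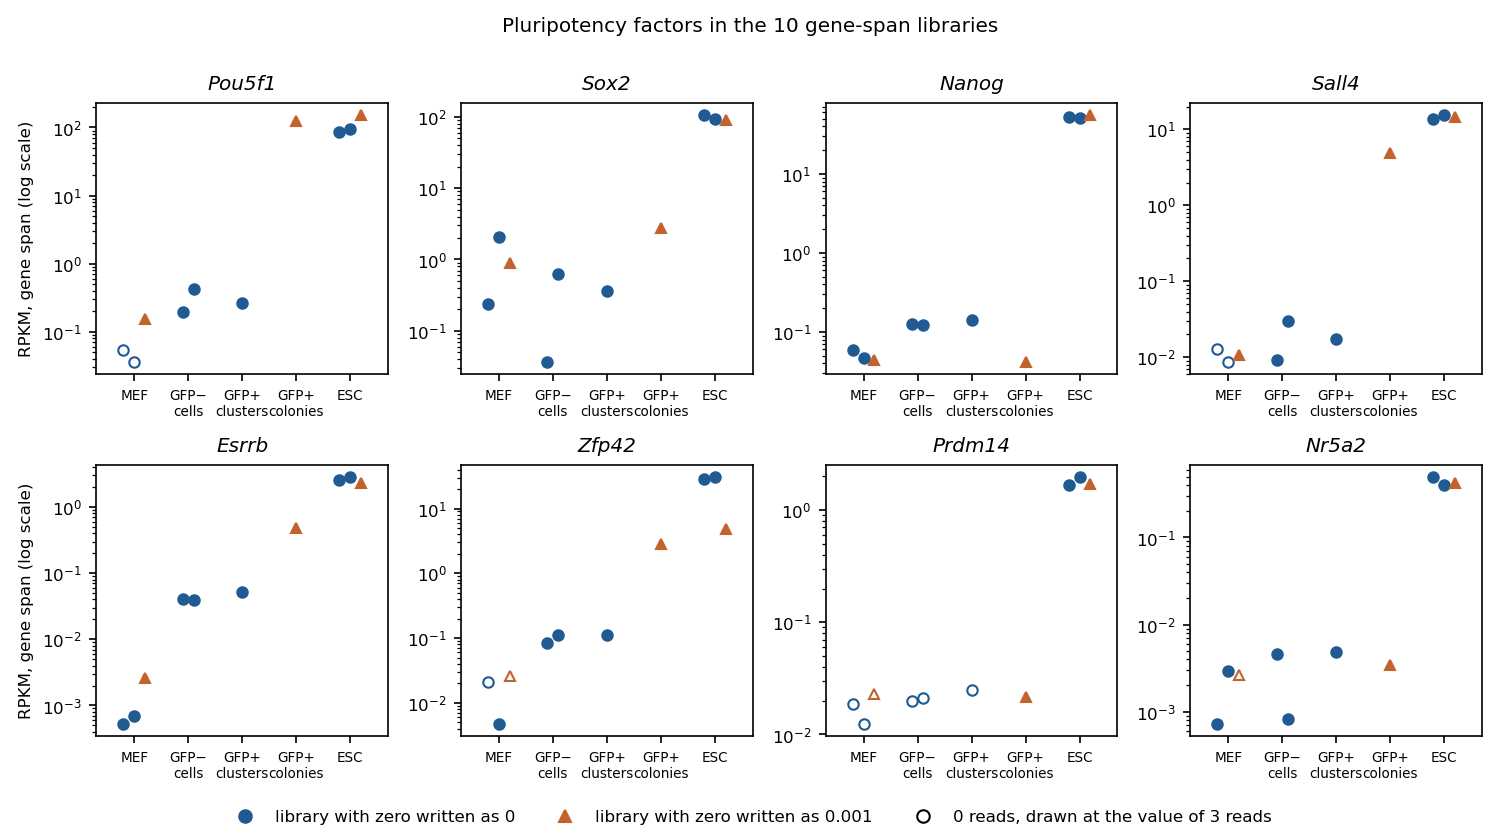
RPKM per kilobase of gene span (log axis, own scale per gene) of the 8 factors in 10 libraries, 1 point a library, in the order MEF, GFP- cells, clusters, colonies and ESC. Circles are libraries that write no reads as 0, triangles those that write 0.001, and open symbols hold 0 reads and are drawn at the value of 3 reads. Pou5f1 lies at the ESC level in the colonies, whereas Nanog, Prdm14 and Nr5a2 lie near their values in the earlier stages.

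The first comparison sets ESC against MEF and gives the range over which each factor can move. Of the 8 factors, 7 were higher in ESC by limma on log2(RPKM + 1), called at an adjusted p under 0.05 and a log2 change of 1 or more, beside 7.95% of all genes tested that were called higher. Except for Sox2 in 1 MEF library, the factors reached the 1 RPKM of the filter only in ESC, CiPSC or colony libraries. A higher level in ESC was thus in part set by the filter, and these counts are a description only. The median log2 change of the 8 was 4.04, also with Prdm14 at the bound given below, against 0.14 over all genes. All 8 had ESC ranges above their MEF ranges, as did 26.8% of all genes.

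Pou5f1 had 86.1, 95.6 and 152 RPKM in ESC replicates 1 to 3, against 0, 0 and 0.154 RPKM in MEF. The MEF values stand for 0, 0 and 7 reads, and ESC replicate 3 was the highest of the ESC libraries. The limma change was 6.70 ± 0.28 (SE, log2, adjusted p = 6.18e-06). Sox2 had 105, 93.6 and 90.0 RPKM in ESC, against 0.240, 2.09 and 0.889 RPKM in MEF, and rose by 5.65 ± 0.35 (log2, SE, limma adjusted p = 2.45e-05). Sox2 was thus the only factor of the 8 at 1 RPKM or more in a MEF library, with 91 reads in MEF replicate 2. Sox2 lies inside the longer noncoding gene Sox2ot, and how reads that both genes could claim were assigned is not given. Nanog had 52.5, 51.7 and 55.4 RPKM in ESC, against 0.0590, 0.0473 and 0.0436 RPKM in MEF, or 3 to 6 reads a MEF library. It rose by 5.69 ± 0.19 (log2, SE, limma adjusted p = 2.28e-06). Pou5f1 and Nanog have pseudogene copies elsewhere in the mouse genome, so their smallest read counts are uncertain. Sall4, which binds beside Oct4 and Nanog, had 13.6, 15.4 and 14.6 RPKM in ESC and 0, 0 and 0.0106 RPKM in MEF, with a limma change of 3.95 ± 0.17 (log2, SE, adjusted p = 6.98e-06).

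The naive-state factors were spread more widely. Esrrb had 2.57, 2.81 and 2.31 RPKM in ESC, against 0.000525, 0.000702 and 0.00259 RPKM in MEF, which are 3694 to 5442 reads a library in ESC and 1, 2 and 4 reads in MEF. Its low RPKM goes with its length: the span is 160512 bases, of which 3.77% is exonic. The change on the log2(RPKM + 1) scale was 1.83 ± 0.16 (SE, limma adjusted p = 0.000149), and that scale understates changes of genes this low. Zfp42 had 28.2, 30.4 and 4.80 RPKM in ESC, against 0, 0.00472 and 0.001 RPKM in MEF, the last of these standing for no reads. The limma change of Zfp42 was 4.12 ± 0.57 (log2, SE, adjusted p = 0.00149). Prdm14 had 1.66, 1.96 and 1.72 RPKM in ESC and not a read in any MEF library. Against a floor of 3 reads over the 3 MEF libraries it was at least 319-fold higher in ESC, and it was called by limma (adjusted p = 8.02e-05). Nr5a2 had 0.492, 0.401 and 0.423 RPKM in ESC (765, 570 and 496 reads), against 0.000721, 0.00289 and 0.001 RPKM in MEF (1, 6 and 0 reads). Its log2 change of 0.52 ± 0.09 (SE, limma adjusted p = 0.00477) missed the fold, which a gene under 1 RPKM in both groups cannot reach with a pseudocount of 1. With a pseudocount of 0.1 it was called, at 2.40 ± 0.25 (log2, SE, adjusted p = 0.000191).

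Within ESC, 6 factors differed little between replicates, and Pou5f1 and Zfp42 did not follow them. Replicate 3 had 1.67 times the mean Pou5f1 level of replicates 1 and 2, and 0.164 times their mean Zfp42 level. On the log2(RPKM + 1) scale Zfp42 was lower there by more than 1, as were 1.52% of all genes tested, and no factor was higher there by 1 or more, as were 11.6% of genes. Replicate 3 is the library of the set with 0.001 in place of 0, and the part of that processing in the 2 differences was not tested. Nanog, at 1.06 times, and Sall4 lay close together in all 3.

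The second comparison asks which factors were already present in GFP- cells, which had been treated with VC6TF and carried no visible Oct4 reporter signal by their label. By limma, 0 of the 8 factors were called against MEF, and 0 had an unadjusted p under 0.05. All 8 were under 1 RPKM in both GFP- libraries, so with a pseudocount of 1 none could pass the fold upward. Over all genes 3.53% were called higher and 4.09% lower. The median log2 change of the 8 was 0.04, against -0.13 over all genes. Against ESC, 7 of the 8 were called lower in GFP- cells (14.3% of all genes), with log2 changes from -6.38 ± 0.31 (Pou5f1, SE) to -1.77 ± 0.18 (Esrrb, SE) among those with reads in both groups, while Prdm14 had no reads in GFP- cells and ESC were at least 174-fold higher than the floor there. Nr5a2, at -0.52 ± 0.10, missed the fold.

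Below 1 RPKM the reads themselves separated the factors. Esrrb had 0.0411 and 0.0392 RPKM in GFP- cells (73 and 65 reads), against 1, 2 and 4 reads in MEF. Both GFP- libraries lay above all MEF libraries, at 1.60% and 1.53% of the ESC mean. Scaled to depth this was 36.2 times the MEF rate (95% interval 17.1 to 91.6, counting error only). Zfp42 had 0.0832 and 0.113 RPKM in GFP- cells (11 and 14 reads), against 1 read in all 3 MEF libraries together. Its ratio was 45.9, with a counting interval of 7.51 to 1883. Pou5f1 had 0.191 and 0.429 RPKM in GFP- cells (10 and 21 reads), against 0, 0 and 7 reads in MEF, a ratio of 8.12 (3.51 to 21.9). Nanog had 0.126 and 0.122 RPKM in GFP- cells (10 and 9 reads), and its ratio to MEF was 2.49 (1.18 to 5.37). These 4 are the factors whose GFP- values all lay above the MEF range, which 13.5% of all genes did.

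The other 4 overlapped MEF or were too sparse to place. Sox2 had 0.0368 and 0.631 RPKM in GFP- cells (1 and 16 reads), inside or below its MEF range, and the pooled ratio of 0.262 (0.148 to 0.438) rests largely on the 91 reads of MEF replicate 2. Sall4 had 2 and 6 reads in GFP- cells, against 0, 0 and 2 in MEF, with a pooled ratio of 7.34 (1.46 to 70.9), and 1 GFP- library lay within its MEF range. Nr5a2 had 6 and 1 reads in GFP- cells, against 1, 6 and 0 in MEF, a ratio of 1.83 (0.549 to 6.13). Prdm14 had 0 reads in both GFP- libraries, which allows up to 0.576% of the ESC mean at 3 reads over the group.

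Once a pseudocount of 0.01 was used, an alternative chosen after seeing the data, limma called 2 factors higher in GFP- cells: Esrrb by 2.16 ± 0.45 (log2, SE, adjusted p = 0.0161) and Zfp42 by 3.19 ± 0.76 (log2, SE, adjusted p = 0.0256), beside 4.23% of all genes. The call on these 2 factors therefore depends on how values far below 1 RPKM are weighted. Of the 8 stem cell markers outside the factors, 0 were at 1 RPKM or more in GFP- replicate 1 and 1 in GFP- replicate 2.

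**Figure D2:**
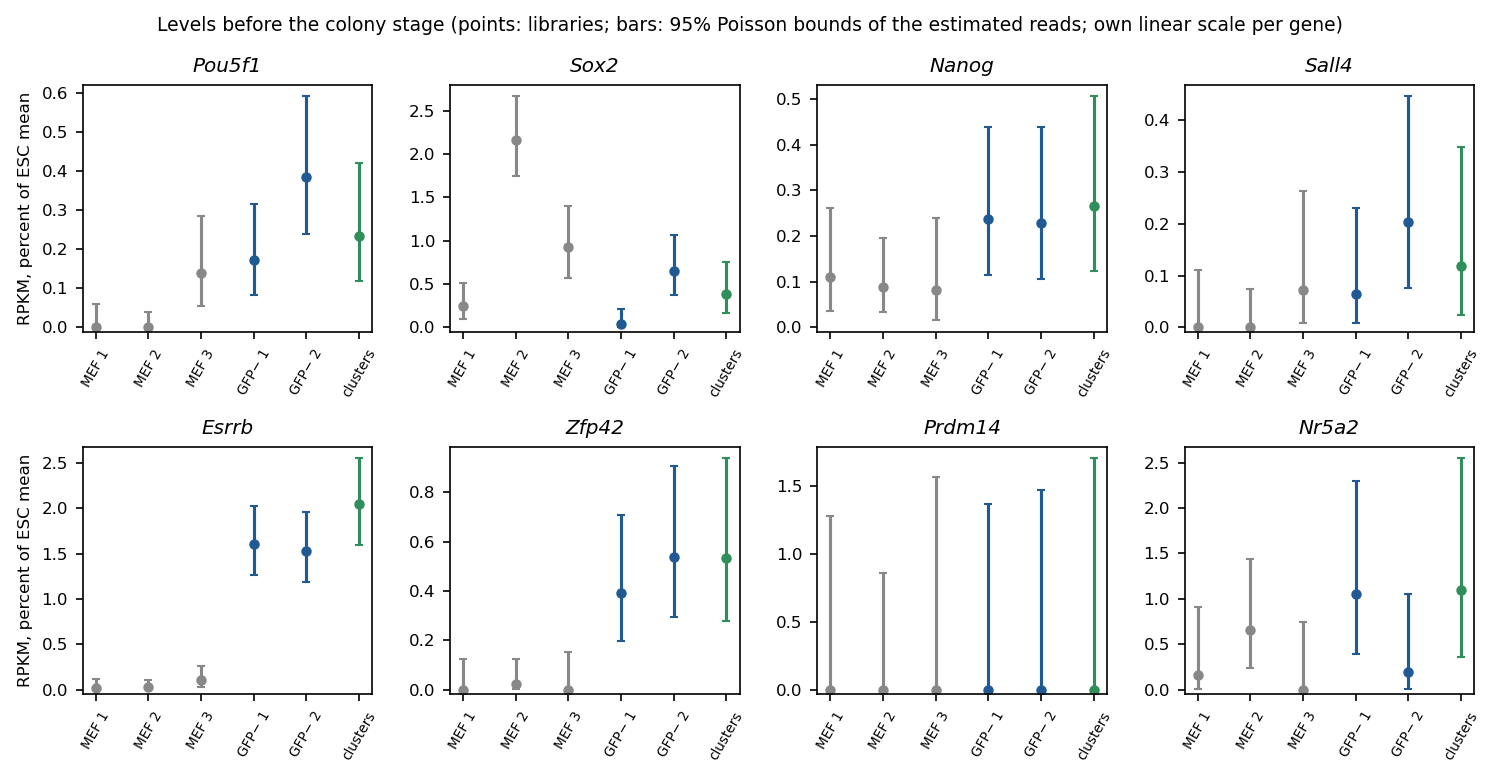
RPKM as a percent of the ESC mean (linear axis, own scale per gene) in the MEF libraries (grey), GFP- libraries (blue) and the cluster library (green), with 95% Poisson bounds of the estimated reads as bars. The 2 GFP- libraries and the clusters stand at 1.53% to 2.04% for Esrrb, apart from the 3 MEF libraries, and Sox2 is highest in MEF replicate 2.

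The clusters follow, labelled Oct4-GFP positive, with 1 library and therefore no test. Pou5f1, the gene the reporter is named for, had 0.260 RPKM there (11 reads, 0.234% of the ESC mean), between the 0.191 and 0.429 RPKM of the 2 GFP- libraries. Its read rate in the clusters was 0.852 times that of the GFP- cells, with a counting interval of 0.386 to 1.74. All 8 factors were under 1 RPKM in the clusters and in both GFP- libraries. A difference of 1 in log2(RPKM + 1) from the GFP- mean therefore could not occur for them. Over all genes 11.4% were higher and 13.2% lower by that much. Esrrb had 0.0524 RPKM in the clusters (74 reads), at 2.04% of the ESC mean the highest share of any factor at this stage, and its ratio to GFP- cells was 1.29 (0.958 to 1.72). Zfp42 had 0.113 RPKM (12 reads), Nanog 0.141 RPKM (9 reads), Sox2 0.365 RPKM (8 reads), Nr5a2 0.00480 RPKM (5 reads) and Sall4 0.0172 RPKM (3 reads), and the counting interval of each ratio to GFP- cells spanned 1. Prdm14 had 0 reads in the clusters, which allows up to 1.38% of the ESC mean. None of the 8 factors reached 10% of the ESC mean in the clusters, while 47.9% of the 846 genes called higher in ESC than in MEF did.

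The colonies, again 1 library, were the first stage with factors near the ESC level, and the factors parted there. The clusters write no reads as 0 and the colonies as 0.001. The RPKM of all genes summed to 67647 in the clusters and 164054 in the colonies. Stage and set cannot be told apart in any comparison of these 2 libraries, and the counting intervals do not cover the set. The number at 10% of the ESC mean or more was 0 of 8 in MEF, 0 in GFP- cells, 0 in the clusters and 4 in the colonies, while among the 846 genes called higher in ESC it was 53.5%, 37.5%, 47.9% and 83.2%. The median share of the ESC mean in the colonies was 8.24% over the 8 factors and 30.5% over those 846 genes. In log2(RPKM + 1), 4 of the 8 were higher in the colonies than in the clusters by 1 or more (Pou5f1, Sall4, Zfp42 and Sox2), as were 27.3% of all genes. Esrrb, Nanog, Prdm14 and Nr5a2 were under 1 RPKM in both libraries, where that difference cannot occur. The read rate of Esrrb was nonetheless 9.26 times that of the clusters. Compared with ESC, 6 of the 8 were lower by 1 or more, as were 9.24% of all genes. Nr5a2, under 1 RPKM in ESC too, could not be among them.

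Pou5f1 had 124 RPKM in the colonies (5882 reads), against 11 reads in the clusters, 473 times the cluster rate (counting interval 264 to 948). The colony value lay inside the ESC range of 86.1 to 152 RPKM. It was 81.3% of ESC replicate 3, the ESC library of the same set, and 136% of the mean of the other 2. Sall4 followed with 4.85 RPKM (952 reads), 281 times the cluster rate (95.7 to 1363) and 33.4% of the ESC mean. That value was below all 3 ESC libraries, and its share was close to 33% of either ESC set. Esrrb had 0.483 RPKM in the colonies (775 reads), 9.26 times the cluster rate (7.29 to 11.9) and 18.8% of the ESC mean, again below every ESC library. Zfp42 had 2.87 RPKM (343 reads), 25.3 times the cluster rate (14.3 to 49.4). It stood at 13.6% of the ESC mean, at 59.7% of ESC replicate 3 and at 9.79% of replicates 1 and 2, so its place among the 4 depends on ESC replicate 3.

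The other 4 factors had stayed far from ESC. Sox2 had 2.80 RPKM in the colonies (69 reads), 7.63 times the cluster rate (3.66 to 18.4) but 2.90% of the ESC mean, and only slightly above the 2.09 RPKM of MEF replicate 2. Prdm14 appeared for the first time, with 3 reads (0.0218 RPKM, 1.22% of the ESC mean), a count that does not separate it from the 0 reads of the clusters. Nr5a2 had 0.00341 RPKM (4 reads), 0.777% of the ESC mean, and a ratio to the clusters of 0.707 (0.140 to 3.29). Nanog had 0.0418 RPKM in the colonies, or 3 reads, against 3940 to 4949 reads in ESC. At 0.0786% of the ESC mean this was the smallest share of the 8, and the ratio to the clusters was 0.295 (0.0513 to 1.18). Pou5f1 and Nanog, at 0.234% and 0.266% of the ESC mean in the clusters, were therefore at 111% and 0.0786% in the colonies.

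**Figure D3:**
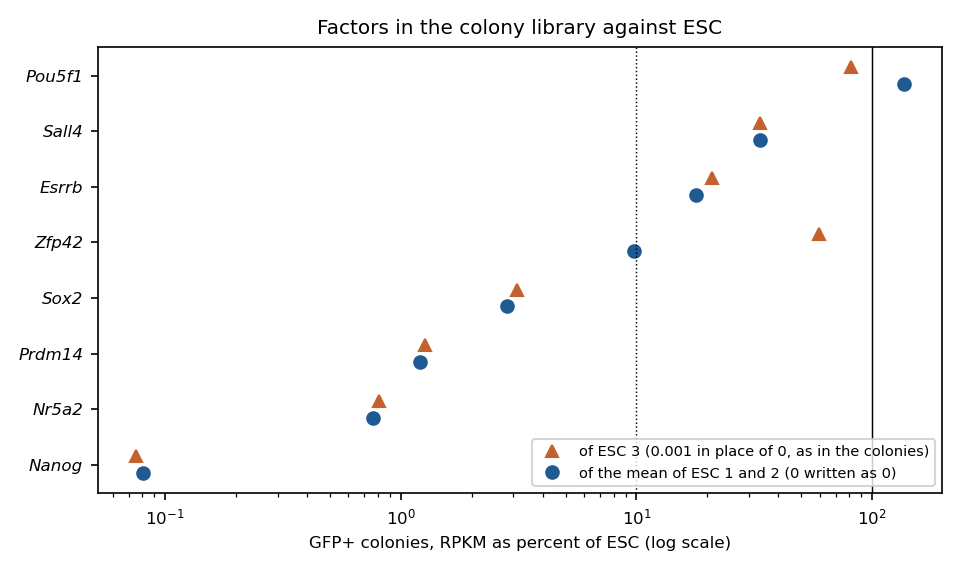
RPKM of the 8 factors in the colony library as a percent of ESC (log axis), ordered by the share of the mean of ESC replicates 1 to 3. Triangles give the percent of ESC replicate 3, from the same set of libraries as the colonies, and circles the percent of the mean of ESC replicates 1 and 2, with lines at 10 and 100 percent. Zfp42 is the factor whose share depends most on the ESC library, 59.7% against 9.79%.

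Markers of another cell type moved with the colony stage. Of 7 extraembryonic endoderm markers 5 were in the table, and all 5 were at 1 RPKM or more in the colonies. Their summed RPKM was 7.08 to 7.69 in MEF, 13.3 and 20.0 in GFP- cells, 25.7 in the clusters, 83.6 in the colonies and 0.290 to 0.388 in ESC. Before the colonies Pdgfra gave most of that sum, with 6.17 to 7.21 RPKM in MEF, 11.0 and 13.7 in GFP- cells and 21.6 in the clusters. Pdgfra had 8.45 RPKM in the colonies. From clusters to colonies Lama1 went from 0.000894 to 41.3 RPKM and Foxa2 from 0.0538 to 21.6 RPKM. Gata4 went from 1.14 to 6.82 RPKM and Gata6 from 2.90 to 5.39 RPKM. Macrophage markers (4 of 6 in the table) summed to 18.1 to 188 RPKM in MEF, 0.270 and 1.55 in GFP- cells, 1.13 in the clusters, 20.8 in the colonies and 3.12 to 10.8 in ESC. The part of either in the colony values of the factors was not tested. For Pou5f1, Esrrb and Zfp42 the order over stages had MEF lowest, GFP- cells and clusters next and not separated from each other, and then the colonies, which were below ESC except for Pou5f1. For Pou5f1 the step from MEF is not clear in every library. The Poisson bounds of MEF replicate 3 (0.0616 to 0.316 RPKM) overlapped those of GFP- replicate 1 (0.0916 to 0.351 RPKM). They also overlapped those of GFP- replicate 2 (0.267 to 0.658 RPKM) and the clusters (0.130 to 0.467 RPKM). For Sall4 and Sox2 the values of MEF, GFP- cells and clusters overlapped, followed by the colonies and then ESC. For Sox2 the Poisson bounds of the colonies (2.17 to 3.54 RPKM) overlapped those of MEF replicate 2 (1.69 to 2.57 RPKM). For Nanog, GFP- cells and clusters were slightly above MEF, and the 3 reads of the colonies did not separate them from the 9 reads of the clusters. All 4 stages were far below ESC. For Prdm14 and Nr5a2 the ESC values alone stood clear of the rest.

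The genes whose log2(RPKM + 1) profile over the 10 gene-span libraries was most like each factor's are given as a description, over libraries that share their stages and sets. The colony library is among the 10, so a like colony level is in part what the correlation picks. Pou5f1 was most like Dnmt3l (Pearson r = 0.997), Dppa5a (0.997) and Epcam (0.995), which stood at 89.9%, 79.8% and 130% of their ESC means in the colonies. Nanog was most like Tdgf1, the coreceptor Cripto (0.999), Slc15a1 (0.999) and Slc30a2 (0.999), at 0.454%, 2.52% and 2.79%. Prdm14 shared Slc30a2 and Tdgf1 with Nanog and had Slc35f2 (0.997, at 4.91%) besides, and Nr5a2 had Zfp534 (0.998), Hormad1 (0.998) and Slc15a1 (0.997), at 2.52%, 4.12% and 2.52%. Sall4 was most like Gtsf1l (0.995), Foxh1 (0.995) and Mybl2 (0.992), at 26.8%, 18.4% and 37.1% of ESC in the colonies. Esrrb was most like Mreg (0.999), Trim6 (0.998) and Pecam1 (0.995), at 19.1%, 12.3% and 16.7%. Zfp42 had Prss41 (0.994), Kbtbd8 (0.993) and Apoo (0.991), at 33.5%, 20.7% and 55.5%. Sox2 had 1110008L16Rik (0.994), 8430406I07Rik (0.992) and Arid3b (0.990), at 28.8%, 21.1% and 15.6% of ESC in the colonies, while Sox2 itself was at 2.90%.

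Members of the wider network also differed from one another in the colonies. Of 20 transcription factors and cofactors listed as partners of the 8, 18 were in the table and tested, 12 were called higher in ESC than in MEF (7.95% of all genes) and 1 (Stat3) lower, with a median log2 change of 1.44, against 0.14 over all genes. Of these 12, 4 reached 10% of the ESC mean in the clusters and 8 in the colonies, beside 47.9% and 83.2% of the 846 genes called higher in ESC. The largest changes were those of Mycn, a MYC family factor (3.61 ± 0.25), Nr0b1, the orphan receptor Dax1 (3.52 ± 0.18), and Zscan10 (3.33 ± 0.17; log2, SE, limma adjusted p at most 4.19e-05). In the colonies Nr0b1 had 6.43 RPKM, against 10.6 ± 1.61 RPKM in ESC (SD, n = 3), whereas Mycn had 1.28 against 16.3 ± 5.43 RPKM and Zscan10 0.646 against 9.13 ± 0.949 RPKM. In GFP- cells 1 partner was called higher than in MEF and 1 lower, beside 3.53% and 4.09% of all genes: Tbx3, a T-box factor, was higher (1.33 ± 0.26, log2, SE, limma adjusted p = 0.0165) and Klf2, a Krüppel-like factor, lower (-3.61 ± 0.39, adjusted p = 0.000926). Klf2 had 9.93, 12.4 and 22.6 RPKM in MEF and 0.0344 and 0.480 RPKM in GFP- cells. It had 25.5 RPKM in the clusters and 1.90 RPKM in the colonies. A further 3 partners were at 10 RPKM or more in the clusters or a GFP- library. Klf4, another Krüppel-like factor, had 20.6, 14.2 and 22.0 RPKM in MEF, 22.9 and 2.94 RPKM in GFP- cells, 7.04 RPKM in the clusters and 49.9 RPKM in the colonies. Zfp281 had 8.69, 10.9 and 3.65 RPKM in MEF, 3.35 and 11.0 RPKM in GFP- cells and 11.3 RPKM in the clusters, and Nacc1 had 3.96 to 7.55 RPKM in MEF, 5.79 and 4.60 RPKM in GFP- cells and 10.1 RPKM in the clusters. These 3, like Klf2, were thus present in MEF already.

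Of 18 genes listed as downstream of the circuit, all were tested, 16 were called higher in ESC than in MEF (7.95% of all genes), with a median log2 change of 3.24, against 0.14 over all genes. In the colonies 9 of the 16 reached 10% of ESC, beside 83.2% of the 846 genes called higher in ESC. Dppa5a, an RNA-binding protein gene and the largest change in the list (9.03 ± 0.31, log2, SE, limma adjusted p = 2.28e-06), had 513 RPKM in the colonies, against 643 ± 78.9 RPKM in ESC (SD, n = 3). Utf1, a chromatin-associated target of Oct4 and Sox2, had 1.96 against 88.9 ± 57.3 RPKM, and Tdgf1 had 0.258 against 56.9 ± 4.34 RPKM. Dppa5a was thus near its ESC level while Utf1 and Tdgf1 were at 2.20% and 0.454%. Spp1, which encodes osteopontin, was the 1 downstream gene called higher in GFP- cells than in MEF, beside 3.53% of all genes. Spp1 rose by 4.65 ± 0.66 (log2, SE, limma adjusted p = 0.00400). It had 455 and 389 RPKM in GFP- cells, 250 RPKM in the clusters and 26.3 RPKM in the colonies.

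**Figure D4:**
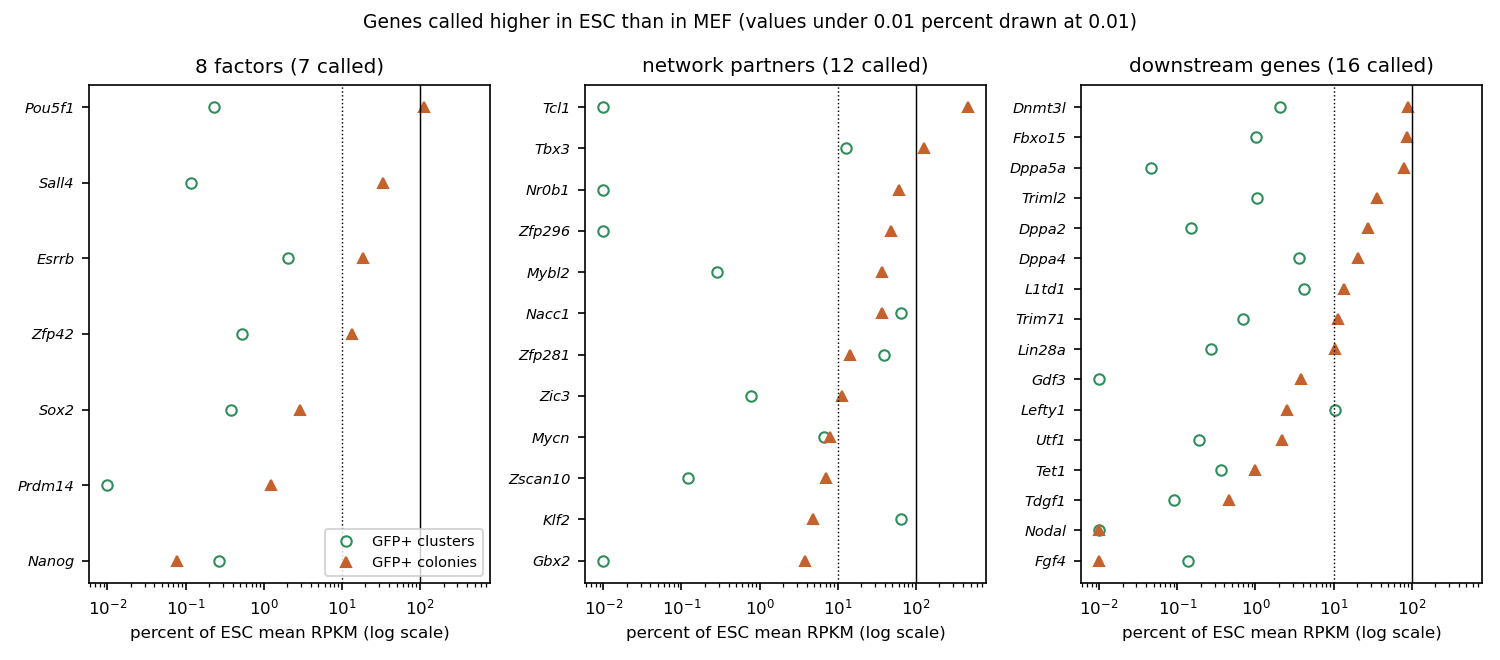
Percent of the ESC mean RPKM (log axis) in the clusters (open circles) and the colonies (triangles) for genes called higher in ESC than in MEF: 7 of the 8 factors, 12 network partners and 16 downstream genes, ordered by the colony value, with lines at 10 and 100 percent and values under 0.01 percent drawn at 0.01. The colony values of all 3 groups run from near or above the ESC level down to about 1 percent or less, except among the partners, where Gbx2 is lowest at 3.76%.

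Of 24 relatives of the 8 by protein family, 19 were in the table and 12 tested, with 3 called higher in ESC than in MEF (Sall1, Sox15 and Sall3), beside 7.95% of all genes, and 1 lower (Sox9). Sall1 rose by 3.35 ± 0.52 (log2, SE, limma adjusted p = 0.00251) and Sox15 by 3.05 ± 0.34 (adjusted p = 0.000502). Sox9, a factor of cartilage and epithelial progenitors, averaged 0.0240 ± 0.0415 RPKM in ESC and 2.50 ± 2.75 RPKM in MEF (SD, n = 3 each, limma adjusted p = 0.0443). The median log2 change of the 12 was 0.71, against 0.14 over all genes. In GFP- cells against MEF limma called 0 of the 12, beside 3.53% of all genes called higher and 4.09% lower. Of the 12, 0 had an unadjusted p under 0.05. Of 8 genes listed for the primed epiblast, the later pluripotent state, 5 of the 7 in the table were tested. Dnmt3b, Zic2 and Otx2 were called higher in ESC than in MEF, beside 7.95% of all genes, and Fst was called lower. The median log2 change of the 5 was 2.22, against 0.14 over all genes. In GFP- cells Foxa2, also a marker of endoderm, was the 1 gene of the list called higher than in MEF, beside 3.53% of all genes. Foxa2 rose by 2.09 ± 0.25 (log2, SE, limma adjusted p = 0.00139), with 2.08 and 5.25 RPKM in GFP- cells and 0, 0.0135 and 0.0748 RPKM in MEF. It had 0.0538 RPKM in the clusters and 21.6 RPKM in the colonies, against 0.0140 ± 0.0125 RPKM in ESC (SD, n = 3). In the clusters Otx2 had 10.0 RPKM, against 0 RPKM in both GFP- libraries, and in the colonies it was listed at 0.001, the value that stands for no reads there. Fst, which encodes follistatin, had at least 15.8 RPKM in both GFP- libraries and 25.6 RPKM in the colonies, against 1.01 ± 0.343 RPKM in ESC (SD, n = 3). Dnmt3b had 0.915 RPKM in the colonies, against 8.08 ± 0.917 RPKM in ESC.

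The last comparison sets the established CiPSC lines against ESC replicate 4 on the scale taken as exonic. A ranking of levels between genes holds only if that scale is right. All 8 factors were present in both lines. In CiPSC lines 6 and 11 Pou5f1 had 246 and 258 RPKM, against 239 RPKM in ESC replicate 4. Nanog had 112 and 98.5 RPKM in the lines, against 87.8 RPKM in ESC, and Sall4 had 30.6 and 32.3 RPKM, against 29.4 RPKM. These 3 were above ESC replicate 4 in both lines, as were 48.2% of all genes. Sox2 had 38.1 and 39.8 RPKM in the lines, against 43.8 RPKM in ESC, and Esrrb had 50.3 and 49.7 RPKM, against 54.7 RPKM. Zfp42 had 49.3 and 53.7 RPKM in the lines, against 135 RPKM in ESC, and Nr5a2 had 5.48 and 5.42 RPKM, against 7.05 RPKM. These 4 were below ESC replicate 4 in both lines, as were 41.3% of all genes. Prdm14 had 5.75 and 5.23 RPKM in the lines, on either side of the 5.73 RPKM of ESC.

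By limma 0 of the 8 factors differed between CiPSC and ESC (0.16% of all genes were called), and 1, Nr5a2, had an unadjusted p under 0.05. Its change was -0.32 ± 0.14 (log2, SE), with a 95% interval of -0.64 to -0.0040. The largest difference was that of Zfp42, -1.38 ± 0.86 (log2, SE), whose interval of -3.33 to 0.58 covers a large fall as well as no change. The spread behind it is pooled over groups and rests on ESC replicate 3, a gene-span library with little Zfp42: without that library the change was -1.38 ± 0.26 (log2, SE, limma adjusted p = 0.0861), still not called. For the other 6 the intervals ran from -0.40 to 0.91 for Nanog, from -0.51 to 0.69 for Sall4, from -0.68 to 0.43 for Esrrb, from -0.45 to 0.34 for Prdm14, from -0.87 to 1.03 for Pou5f1 and from -1.37 to 1.04 for Sox2. With the pseudocount of 1, a log2 difference of 1 is thus outside the interval of Nanog, Sall4, Esrrb, Prdm14 and Nr5a2. It is inside that of Pou5f1, Sox2 and Zfp42. The SE behind these intervals is pooled mostly over gene-span libraries and depends on the pseudocount. With 1 it was 0.29 for Nanog, 0.26 for Sall4, 0.24 for Esrrb, 0.17 for Prdm14 and 0.14 for Nr5a2. With 0.1 it was 0.43 for Nanog, 0.45 for Sall4, 0.46 for Esrrb, 0.41 for Prdm14 and 0.38 for Nr5a2. At that setting 0 factors had an unadjusted p under 0.05 by limma, and intervals were not computed. A log2 difference of 1 is therefore not taken as excluded for any factor. The order of levels in ESC replicate 4 was Pou5f1, Zfp42, Nanog, Esrrb, Sox2, Sall4, Nr5a2 and Prdm14. In both lines Nanog came second, and in line 6 Esrrb was above Zfp42 and Prdm14 above Nr5a2. The 2 lines differed from each other by at most 1.13-fold in any factor.

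**Figure D5:**
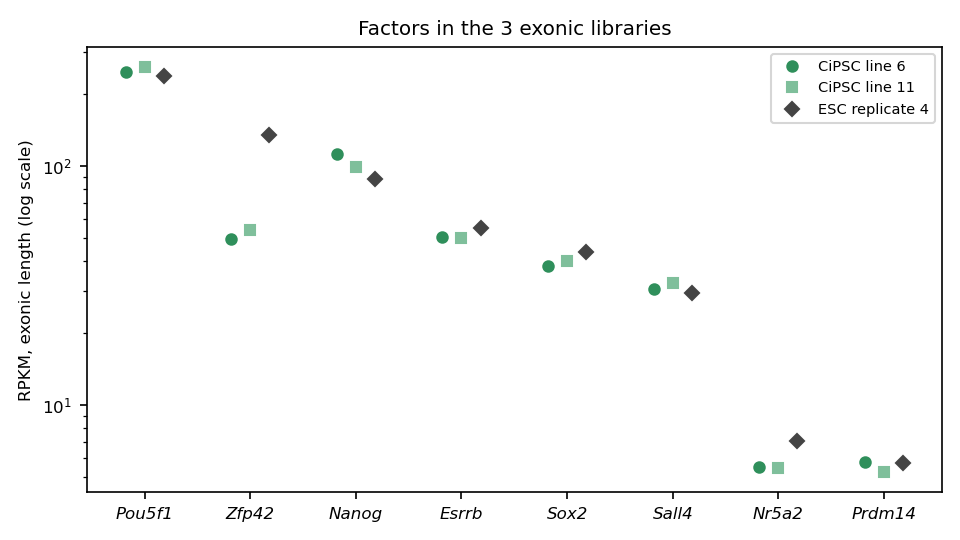
RPKM on the scale taken as exonic (log axis) of the 8 factors in CiPSC line 6, CiPSC line 11 and ESC replicate 4, ordered by the ESC value, 1 point a library. Zfp42 is the factor furthest apart, with 49.3 and 53.7 RPKM in the lines and 135 RPKM in ESC replicate 4.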

How the data were processed

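The deposited table held 1 RPKM column for each of 13 libraries of total RNA, and the authors deposited no counts with it. Per the submitters' processing notes, TopHat 1.3.0 and mm9 were used. How reads were counted, with which gene lengths and strand setting, is not given in the sources here. Of 15184 rows, 8 that share 1 identifier were left out. RPKM multiplied by the GENCODE gene span (GRCm38, used for lengths, as were RefSeq spans for 3 factors) gave whole reads for 82.4 to 85.2% of low values in 10 libraries at a tolerance of 0.05 reads, and for 10.8 to 11.2% in the other 3, which were taken as exonic. GENCODE exon lengths gave whole reads for 9.70 to 10.1% of low values in those 3, so their exonic scale is inferred and not shown. From the gene-span fits come the estimated reads, their exact 95% Poisson bounds and the floor of 3 reads.

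Values were analysed as log2(RPKM + 1) without further scaling. The 10647 genes that reached 1 RPKM in 2 libraries or more were fitted with limma 3.58.1 (R 4.3.3) on all 13 libraries. The model had 6 groups, a length-scale term and a trended prior variance, and p-values were adjusted by Benjamini-Hochberg. A call needs an adjusted p under 0.05 and a log2 change of 1 or more. CiPSC against ESC rests on ESC replicate 4, with the spread pooled over groups. Clusters and colonies have 1 library each and no test. The fit was tested on simulated data. The 8 factors and the gene lists were chosen with earlier results of these data known. Named genes are all 8 factors, the 3 most correlated genes of each, and of the lists the 3 largest called changes and the genes at 10 RPKM or more in the clusters or a GFP- library. Tbx3, Stat3, Gbx2, Sall3 and Foxa2 are named besides these because counts of 5 or fewer, or an extreme, rest on them, and were chosen after their values were seen. Alternatives covered the pseudocount, the filter, scaling, the trend, the libraries included and each replicate left out.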

Additional observations from a re-analysis of the deposited data

How the results depend on the processing

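Over single factors, 414 alternative values kept their call with no turn of sign, and 6 became calls: Nr5a2 in ESC against MEF and in GFP- cells against ESC with pseudocounts of 0.1 and 0.01, and Esrrb and Zfp42 in GFP- cells against MEF with 0.01, where the number of factors called became 2. The sign turned in 4, all of differences that were not called: in GFP- cells against MEF, Zfp42 was -0.26 with the replicate block (0.13 without it) and Nr5a2 was -0.0024 with the block and -0.0010 to 0.0045 with 1 library left out (0.0017 with all), and in CiPSC against ESC Prdm14 was -0.11 without line 6 and 0.0043 without line 11 (-0.05 with both). The cause was not tested. With a pseudocount of 0.01 the single-library counts became 1 factor past the fold in clusters against GFP- cells and 7 in colonies against clusters. Of the 7, 6 were higher and 1 (Nanog) lower, with Prdm14 among the 6 on 3 reads against 0 and Nanog on 3 against 9. At a threshold of 25% of the ESC mean 2 factors were reached in the colonies, and with any 1 ESC replicate left out 3 to 4, the 3 without replicate 3. The 0.01 pseudocount and the ESC set used were chosen after seeing the data.

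Counts over all genes moved more. With pseudocounts of 0.1 and 0.01, GFP- cells against MEF gave 1391 and 1563 genes, GFP- cells against ESC 3861 and 3952, and CiPSC against ESC 3 and 6, while ESC against MEF gave 2590 with 0.1. CiPSC against ESC gave 17 genes, 50 with no filter and 9 with no trend. GFP- cells against MEF gave 811 genes, 453 in the gene-span libraries alone and 343 within libraries that hold exact 0. Leaving out 1 library each gave 1330 to 1699 for ESC against MEF, 562 to 1499 for GFP- cells against MEF (1499 without GFP- replicate 2), 2097 to 2916 for GFP- cells against ESC, and 10 to 46 for CiPSC against ESC (46 without ESC replicate 3, 10 without line 6). CiPSC against ESC without ESC replicate 4 could not be fitted, because no exonic ESC library is left. The factors called stayed at 7, 0, 7 and 0 in all of these leave-one-out fits. With the pseudocount of 1 no factor could be called higher in GFP- cells than in MEF there. Upper-quartile scaling moved the median gene by -0.15 (log2) in colonies against clusters. Replicate numbers did not pair the samples (correlations of deviations -0.04, -0.07 and 0.08), and a replicate block gave 1986, 948, 2631 and 20 genes with 7, 0, 7 and 0 factors called. Genes under about 1 RPKM are limited by few reads in MEF, GFP- cells and clusters.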
